A study of Caenorhabditis elegans with 2 samples.

Results

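The genes described here encode the translation factors and the aminoacyl-tRNA synthetases of Caenorhabditis elegans. Members were all protein-coding genes whose symbols begin with eif, ife, iff, ifg, eef or eft, or with a letter followed by ars, then a hyphen and a number. This rule took 71 of the 19973 protein-coding genes on the nuclear chromosomes: 33 initiation factors, 6 elongation factors and 32 tRNA synthetases. The remaining 19902 protein-coding genes, which include the ribosomal protein genes, served as the comparison. The data were peak lists from chromatin immunoprecipitation and sequencing (ChIP-seq) of LIN-26 fused to GFP, in 2 biological replicates of 1 group. Both replicates were whole young adults, aged 64 hours and synchronised by starving bleached embryos at the L1 stage, of strain RW12178. The strain carries st12178, a CRISPR insertion of GFP at lin-26 with a loxP-flanked unc-119(+) marker, in the unc-119(tm4063) III background. Whole animals were used, so binding in any 1 tissue cannot be told apart from binding in another. There was no second condition, and no untagged strain was analysed here.

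LIN-26 is a zinc finger transcription factor of C. elegans, known for its requirement in epidermal and other non-neuronal ectodermal cells. Translation starts when initiation factors bring the messenger RNA cap, the initiator tRNA and the small ribosomal subunit together. Elongation factors then deliver each charged tRNA and move the ribosome along, and each synthetase loads 1 kind of amino acid onto its tRNAs. Genes of this machinery are active in nearly all growing cells.

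LIN-26::GFP summits lay at the promoters of a larger share of translation genes than of other genes, and the share was highest among the elongation factors. A promoter summit is the highest point of a peak lying from 1000 bp upstream to 200 bp downstream of any annotated 5′ end. In the list made from both replicates, 13 of 71 members (18.3%, 95% Wilson interval 11.0 to 28.8%) had a promoter summit. Among the other protein-coding genes the share was 6.62% (1318 of 19902). Of the 6 elongation factors 3 had a promoter summit (interval 18.8 to 81.2%), as did 5 of 33 initiation factors (15.2%) and 5 of 32 synthetases (15.6%). For scale, 25 of 78 ribosomal protein genes had one (32.1%). The intervals cover counting error only, and the difference was not tested, since peaks in neighbouring genes are not independent.

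The replicates differed in how many members they held. Replicate 2's own list, with 2083 peaks, held promoter summits at 10 members (14.1%), against 4.48% of other genes. Replicate 1's own list, with 1191 peaks, held a summit at 1 member (1.41%, interval 0.249 to 7.56%), against 2.48% of other genes. In replicate 1 the background share thus lay inside the members' interval. Ribosomal protein genes kept their higher share in both lists, with 14 of 78 genes in replicate 1 and 22 of 78 in replicate 2. The conservative list, a stricter list made from both replicates, held 9 members (12.7%), against 5.61% of other genes. On that list the synthetases were near the background, with 2 of 32 genes (6.25%). Peak lists carry no read counts, so whether the replicates' depth differs is unknown and its part in these counts was not tested.

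**Figure D1:**
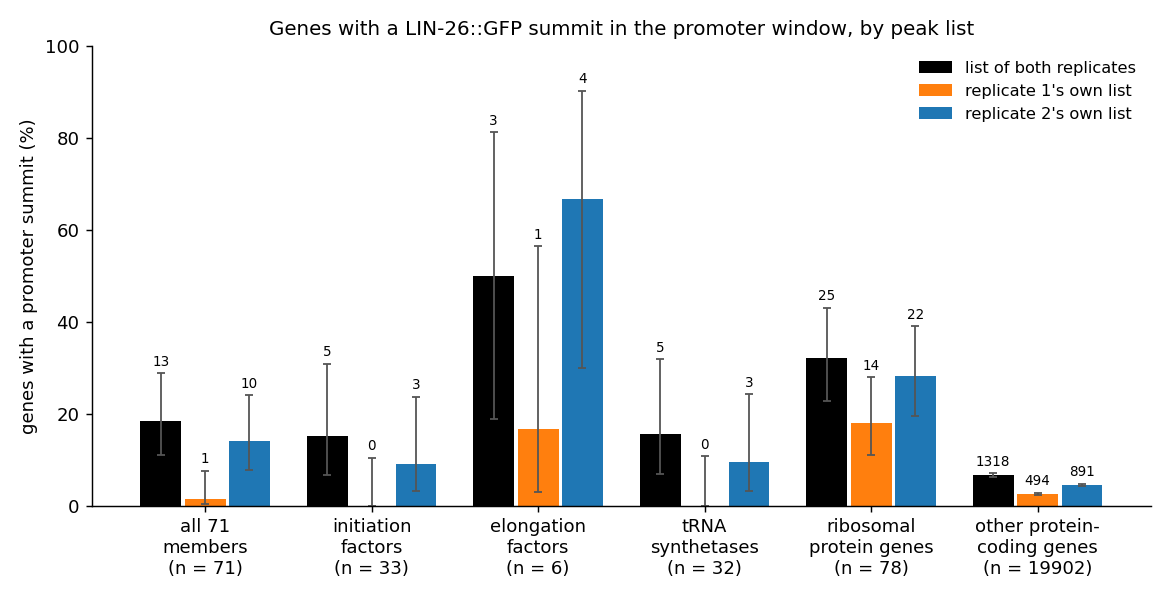
Share of genes (%) with a promoter summit for all members, the 3 member classes, ribosomal protein genes and other protein-coding genes. Bars show the list of both replicates and each replicate's own list, error bars are 95% Wilson intervals, and numbers give genes with a summit. Members reached 18.3% in the list of both replicates and 1.41% in replicate 1's list, against 6.62% and 2.48% of other genes.

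The DNA at the strongest promoter summit of 6 members is given here, to show what these peaks cover. Their signals ran from 99.6 at aars-1, below the median of 118 of other genes with a promoter summit, to 265 at eef-1A.2, and not every member of higher signal is shown. Each window reaches up to 100 bases to either side of the summit, is written 5′ to 3′ on the gene's strand, and stops at the first annotated untranslated base. Coordinates are those of ce11 (WBcel235). Capitals mark matches to the motifs searched, which are given after the members.

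eef-1A.2 (chrX:7823178-7823377, plus strand): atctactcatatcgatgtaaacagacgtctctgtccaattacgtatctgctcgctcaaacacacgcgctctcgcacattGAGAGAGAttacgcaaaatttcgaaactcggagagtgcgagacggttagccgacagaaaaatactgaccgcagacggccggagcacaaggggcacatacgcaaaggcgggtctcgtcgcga
eif-2Bgamma (chrII:6968256-6968455, minus strand): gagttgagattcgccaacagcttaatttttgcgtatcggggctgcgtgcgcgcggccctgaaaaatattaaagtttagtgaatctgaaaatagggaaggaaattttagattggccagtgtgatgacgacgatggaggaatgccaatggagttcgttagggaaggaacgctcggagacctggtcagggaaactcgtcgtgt
ears-2 (chrIV:390469-390559, minus strand): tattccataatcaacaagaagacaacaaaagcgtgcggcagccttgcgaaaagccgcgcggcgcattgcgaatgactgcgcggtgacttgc
ife-1 (chrIII:13343713-13343823, plus strand): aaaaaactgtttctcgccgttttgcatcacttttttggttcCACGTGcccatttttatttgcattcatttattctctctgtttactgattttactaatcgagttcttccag
eef-1G (chrV:10965593-10965718, plus strand): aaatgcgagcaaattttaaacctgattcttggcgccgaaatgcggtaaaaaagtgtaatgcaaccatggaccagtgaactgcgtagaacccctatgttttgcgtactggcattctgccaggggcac
aars-1 (chrII:11464599-11464798, minus strand): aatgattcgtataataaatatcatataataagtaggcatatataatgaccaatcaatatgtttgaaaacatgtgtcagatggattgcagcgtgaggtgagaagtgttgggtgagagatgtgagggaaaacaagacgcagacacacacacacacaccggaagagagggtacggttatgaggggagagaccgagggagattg

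Of these windows, that of eef-1A.2 holds a GA repeat and that of ife-1 an E-box, and the other windows hold no searched motif. Each of these motifs was present at 1 of the 15 promoter summits of the 13 members.

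Among the elongation factors, the highest peak lay at eef-1A.2, which encodes eEF1A, the GTPase that carries charged tRNAs to the ribosome. Its peak at chrX:7823110-7823445 had a deposited signal of 265, rank 306 of the 3187 nuclear peaks, with the summit 376 bp upstream of the 5′ end. The overlapping peak had a signal of 97.2 in replicate 1 and 158 in replicate 2, and it was in both replicates' own lists. No other member's promoter peak was in both. Signal values are the peak caller's and are not scaled between lists, so they are read by rank within a list.

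The second eEF1A gene, eef-1A.1, had a weaker promoter peak at chrIII:6971908-6972243, with a signal of 79.3 and its summit 364 bp upstream. The same summit lies in the promoter window of rfc-4, a replication factor C subunit gene, and within the miRNA gene mir-5549. Replicate 1 had a ranked signal of 37.1 there and replicate 2 had 61.4, and only replicate 2's own list held it. A stronger peak, with a signal of 202, lay in the coding sequence 246 bp before the 3′ end. There, replicate 1 had a ranked signal of 22.8 at an irreproducible discovery rate (IDR) of 0.71, and replicate 2 had 124 at an IDR of 0.00026. The IDR estimates the share of peaks that do not recur among those ranked as high, so a low value marks a repeatable peak. A replicate's own IDR comes from that sample alone. A low value there does not show that the peak recurs in the other replicate. A stretch covering 70.9% of that coding peak is 89.4% identical to eef-1A.2, so reads there may not be assigned to 1 gene with certainty.

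The gene eef-1G encodes the gamma subunit of the exchange factor that recharges eEF1A with GTP. Its promoter peak at chrV:10965525-10965860 had a signal of 119, with the summit 26 bp upstream, in a window shared with the cohesion gene ctf-4. Replicate 1 had a ranked signal of 48.8 and replicate 2 had 75.6, and again only replicate 2's own list held the peak. A further peak of signal 86.0 had its summit 1 bp past the 3′ end, 307 bp from the snoRNA gene F17C11.14, and this one was in replicate 1's own list only.

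The other 3 elongation factors had no promoter summit in the list of both replicates. The translocase gene eef-2 had a peak of signal 119 in its 3′ UTR, 179 bp before the 3′ end. Its promoter held a summit in replicate 2's own list only, and its best IDR there in the ranked list of both replicates was 0.011, just short of the 0.01 that the thresholded list reaches. The exchange factor gene eef-1B.2 had a coding peak of signal 131 and a peak of signal 160 lying 38 bp past its 3′ end, both in the promoter window of hrpu-1. The second of these was in both replicates' own lists, with signals of 79.1 in replicate 1 and 86.4 in replicate 2. Its paralog eef-1B.1 had no summit, with a best promoter IDR of 0.040.

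Of the initiation factors, eif-2Bgamma had the strongest promoter peak. It encodes a subunit of eIF2B, which reloads the initiator tRNA carrier eIF2 with GTP. Its peak at chrII:6968188-6968523, of signal 161, had its summit 708 bp upstream of the 5′ end, inside the neighbouring gene C15F1.5 and 38 bp from sup-39, which is annotated as an snRNA gene. Sequence matching 144 bp of the peak at 96.5% identity lies at sup-6, and the peak had 11 matches of any length elsewhere in the genome. Replicate 1 had a ranked signal of 56.9 and replicate 2 had 99.5. Relative to this summit, the replicate 1 summit lay at 123 bp and the replicate 2 summit at -179 bp (negative is upstream). A second promoter peak of the gene, of signal 91.4, had its summit 922 bp upstream and 12 bp from sup-39. The same replicate 2 peak of 99.5 overlaps it, with the summit only 35 bp from this second summit. Replicate 1 had another peak there, with a ranked signal of 41.2 and its summit 49 bp away. The replicate 2 signal thus cannot be given to the peak of 161 alone. Leaving out summits within 500 bp of tRNA, snoRNA and snRNA genes removed eif-2Bgamma alone, and left 12 of 71 members (16.9%), against 5.71% of other genes.

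The eIF3 complex, which holds the initiation machinery on the small ribosomal subunit, had 2 subunit genes with a promoter summit. The genes of its subunits B, D, E, F, H, I, J, K and L had none, and 6.62% of other protein-coding genes had one. The gene eif-3.C had a signal of 137 at chrI:9979724-9980059, with its summit 230 bp upstream, with a ranked signal of 39.1 in replicate 1 and 101 in replicate 2. At eif-3.G (chrII:8442854-8443189) the summit lay 174 bp downstream of the 5′ end, in the coding sequence, with a signal of 90.1. The overlapping ranked peaks had signals of 47.1 in replicate 1 and 46.7 in replicate 2. The replicate 1 summit lay 39 bp further downstream, outside the promoter window, where the best ranked signal of replicate 1 was 22.2. Neither replicate's own list held the eif-3.G peak. The subunit genes eif-3.B and eif-3.E each had a best promoter IDR of 0.011, just short of the threshold, but their signals differed. The strongest promoter signal was 78.8 at eif-3.B and 18.2 at eif-3.E. At eif-3.E replicate 1 had no ranked promoter peak and replicate 2 had one of 12.1. The best promoter IDRs of the other subunit genes without a summit ran from 0.13 to 0.73.

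The gene ife-1 encodes an eIF4E, the protein that binds the messenger RNA cap. Its peak was at chrIII:13343564-13343899, and the summit lay 92 bp upstream of an inner 5′ end, in an intron of the longer transcript, with a signal of 120 in the list of both replicates, 49.8 in replicate 1 and 68.8 in replicate 2. The paralog ife-5 matches 127 bp of this peak at 78.0% identity. Of the strongest promoter peaks of each member, the weakest was at eif-2alpha, which encodes the subunit of eIF2 whose phosphorylation lowers initiation. That peak, of signal 58.0 at chrI:2071722-2072057, lay 790 bp upstream, inside the prohibitin gene phb-1, and neither replicate's own list held it. A second promoter peak of the gene, 589 bp upstream, had a signal of 20.4. A stronger peak, of signal 163, lay 127 bp past the 3′ end of eif-2alpha, with ranked signals of 62.1 in replicate 1 and 92.1 in replicate 2.

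All 5 synthetase genes with a promoter summit had it upstream of the 5′ end. The glutamyl-tRNA synthetase gene ears-2 had a signal of 141 at chrIV:390324-390659, with its summit 24 bp upstream, in a window shared with uncp-18. Its ranked signal was 49.6 in replicate 1 and 94.6 in replicate 2. The ears-2 peak had 20 matches elsewhere in the genome, the longest covering 100 bp (29.8% of the peak) at 81.0% identity. The alanyl gene aars-1, in a window shared with rga-1, had a signal of 99.6 at chrII:11464531-11464866, with 44.7 in replicate 1 and 42.7 in replicate 2. The phenylalanyl gene fars-3 had 98.9 at chrII:8464354-8464689, with 44.3 in replicate 1 and 56.2 in replicate 2. Neither replicate's own list held either of these peaks.

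The valyl gene vars-1 had a signal of 96.6 at chrV:8030949-8031284, inside the neighbouring gene oma-2, with 34.9 in replicate 1 and 76.2 in replicate 2. The overlapping replicate 1 peak had its summit 303 bp downstream of this summit, so it may be a different site. The threonyl gene tars-1 had 91.5 at chrII:11695568-11695903, inside kel-1 and in a window shared with xpf-1, with 32.2 in replicate 1 and 60.8 in replicate 2. The tars-1 peak lies in repeated sequence: it had 156 matches elsewhere in the genome, the longest covering 337 bp at 84.0% identity. Of the synthetase genes without a summit, dars-1 (aspartyl) had a best promoter IDR of 0.011, qars-1 (glutaminyl) 0.017 and sars-1 (seryl) 0.028.

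**Figure D2:**
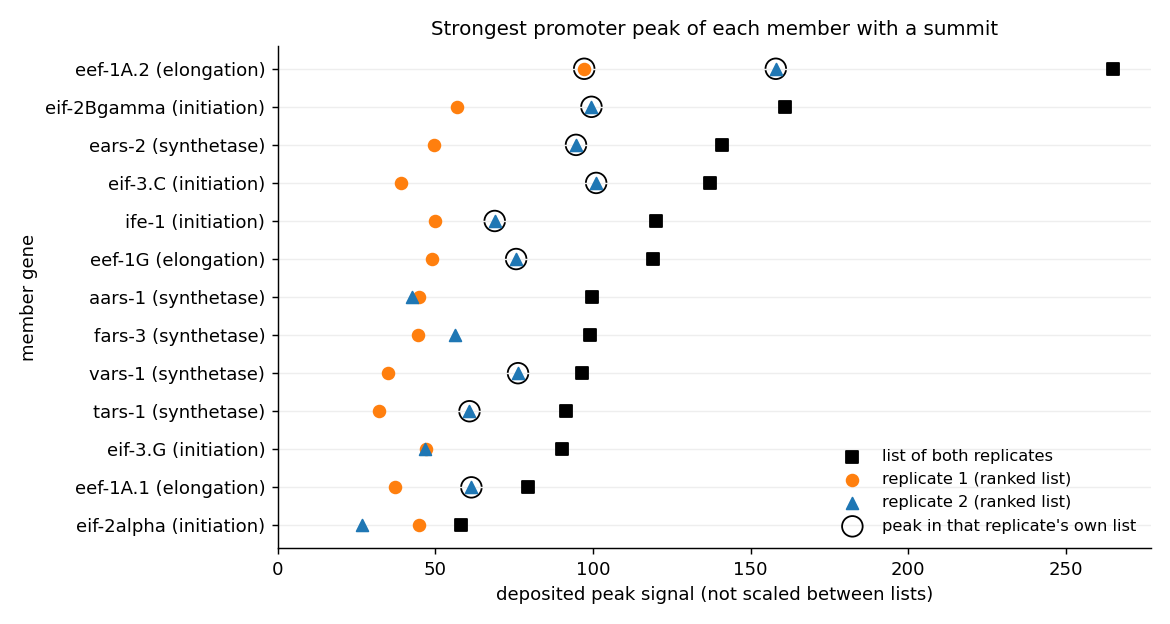
Deposited peak signal at the strongest promoter peak of each of the 13 members with a summit, in the list of both replicates (squares) and in the ranked lists of replicate 1 (circles) and replicate 2 (triangles). Open rings mark peaks that were also in that replicate's own thresholded list. Only eef-1A.2 is ringed in replicate 1, while 9 members are ringed in replicate 2.

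All 13 strongest promoter peaks overlapped a ranked peak in replicate 1 and in replicate 2, with lower IDRs in replicate 2. Any shared base counted as overlap, so the summits need not coincide, as at vars-1 and eif-2Bgamma. An IDR of 0.05 or lower was reached at 2 of them in replicate 1 and at 11 in replicate 2. The median signal of the members' strongest promoter peaks was 99.6, against 118 for other genes with a promoter summit, and 75.9 against 89.1 in replicate 2's own list. The median peak of the whole list had a signal of 112.

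Member summits lay close to the gene start. The median position was 230 bp upstream of the nearest 5′ end, against 324 bp upstream in other genes with a summit. The summit was within 400 bp of a 5′ end at 11 of 13 members (84.6%, interval 57.8 to 95.7%), against 56.0% of other genes. This was not particular to members: in ribosomal protein genes it was 19 of 25 (76.0%), with a median of 265 bp upstream. By class it was 3 of 5 initiation factors, 3 of 3 elongation factors and 5 of 5 synthetases. Members more often have several 5′ ends, and whether this bears on the distance to the nearest was not tested. At 5 of 13 members (38.5%) the summit also lay in another gene's promoter window, against 32.4% of other genes, so these summits cannot be given to 1 gene.

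**Figure D3:**
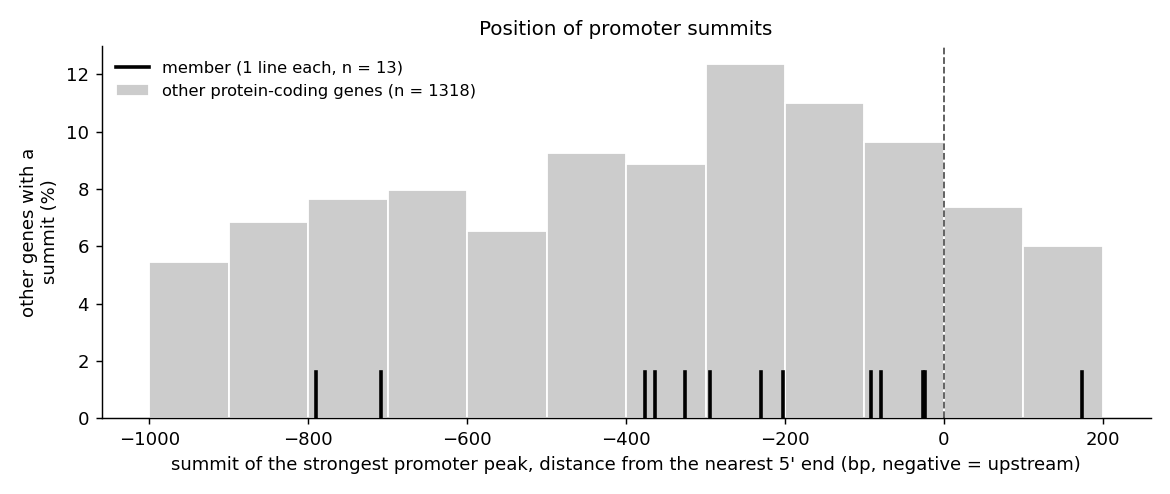
Distance in bp from the nearest annotated 5′ end to the summit of the strongest promoter peak, for each of the 13 members (black lines) and as the percentage of 1318 other genes (grey bars). Of the member lines, 11 lie within 400 bp of the 5′ end.

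Members with several annotated 5′ ends have wider windows, and 52.1% of members have several, against 27.3% of other genes. Among genes with 1 annotated 5′ end, 7 of 34 members (20.6%) had a promoter summit, against 5.01% of other genes. Among genes with several, the counts were 6 of 37 members (16.2%) and 10.9% of other genes. By chromosome, members had summits at 2 of 21 genes on I, 5 of 17 on II, 2 of 12 on III, 1 of 10 on IV, 2 of 8 on V and 1 of 3 on X. The share of other genes ran from 4.57% on V to 9.31% on I. Chromosome I, which carries the most members, was the chromosome where the members' count stood nearest to the background.

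The ranked lists, which reach far below the threshold, gave a value for most members. A ranked promoter peak was present at 57 of 71 members in replicate 1 (80.3%), against 51.8% of other genes, and at 66 members in replicate 2 (93.0%), against 59.3%. Each gene was given the percentile of its strongest ranked promoter signal among all protein-coding genes. The median percentile of members was 69.0 in replicate 1 and 77.5 in replicate 2, against 49.9 for other genes in each. The other genes make up nearly all genes ranked, so their median lies near the middle by construction. Replicate 1 thus ranked the members' promoters above the middle of all genes, although its own thresholded list held 1 of them.

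The classes differed in the same order in both replicates. The median percentile of elongation factors was 93.2 in replicate 1 and 95.6 in replicate 2, that of synthetases 70.6 and 79.0, and that of initiation factors 65.7 and 66.9. Ribosomal protein genes had 89.0 in replicate 1 and 87.3 in replicate 2. Among genes with 1 annotated 5′ end the member medians were 61.6 in replicate 1 and 78.0 in replicate 2, against 24.0 and 45.2 for other genes. In replicate 1, 24.0 is the value shared by all genes without a ranked peak. With 6 elongation factors, of which some share sequence, the order of the classes is a description only.

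**Figure D4:**
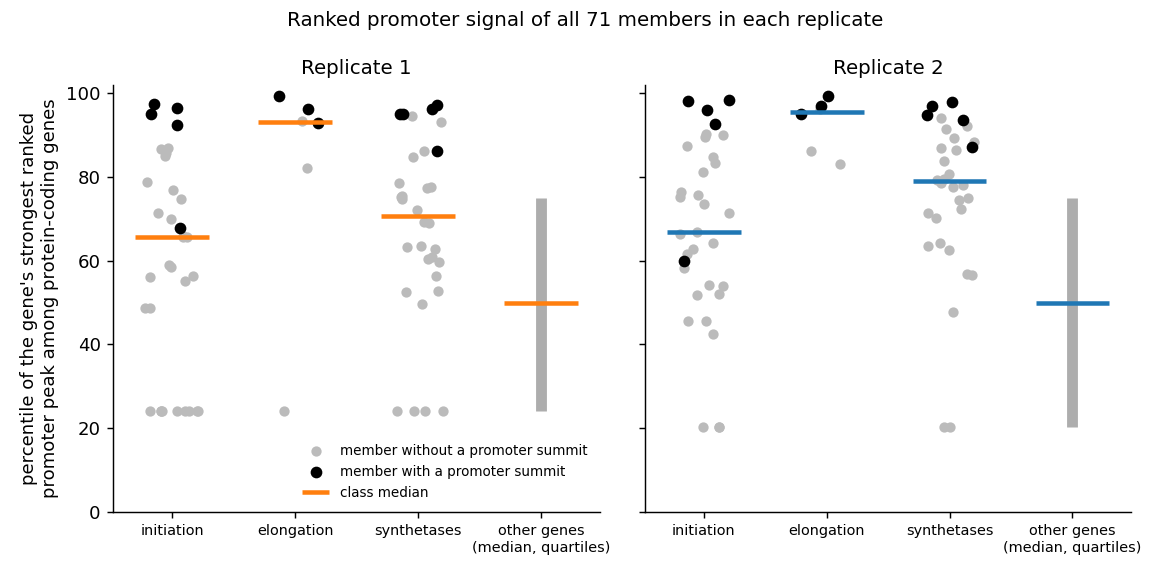
Percentile of each member's strongest ranked promoter peak among all protein-coding genes, by class, in replicate 1 (left) and replicate 2 (right). Black points have a promoter summit in the list of both replicates, grey points do not, and coloured lines are medians. Grey bars give the quartiles of other genes, whose median of 49.9 lies near the middle by construction. Genes without a ranked peak share the lowest value.

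Of the 58 members without a promoter summit, 48 had a ranked promoter peak in the list of both replicates, and 9 of them reached an IDR of 0.05 or lower. Counted with the 13 called members, 22 of 71 (31.0%) had a promoter summit at that IDR, against 11.5% of other genes. The median best IDR of the 48 members with a ranked promoter peak but no promoter summit was 0.250. No ranked promoter peak was present in any list at iff-2, which encodes an eIF5A, or at the tryptophanyl gene wars-1 and the tyrosyl gene yars-1. The other eIF5A gene, iff-1, had one in every ranked list, with a best IDR of 0.049 in the list of both replicates.

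Summits away from the promoter were about as frequent at members as promoter summits. A summit inside the gene but outside its promoter window was present at 10 of 71 members (14.1%), against 5.73% of other genes. A summit within 500 bp of the 3′ end and outside the window, a count made after the peaks had been seen, was present at 12 members (16.9%), against 5.16% of other genes. These counts overlap, since most members with a summit inside the gene were also counted at the 3′ end. In 8 of the 12 members such a summit lay in no promoter window of any protein-coding gene (11.3% of members, against 3.45% of other genes). Among elongation factors 4 of 6 had a summit at the 3′ end, and among ribosomal protein genes 55 of 78 did (70.5%). In no promoter window of any protein-coding gene the counts were 3 of 6 elongation factors and 30 of 78 ribosomal protein genes (38.5%). Ribosomal protein genes are short, with a median length of 755 bp against 2438 bp for members. Whether gene length bears on the 3′-end share was not tested.

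Both replicates' own lists held a 3′-end summit at 2 of 71 members, eef-1B.2 and the isoleucyl gene iars-2, against 335 of 19902 other genes. With 2 genes, no difference from other genes is read from this count. Replicate 1's own list held a 3′-end summit at 3 members (4.23%, against 2.09% of other genes), and replicate 2's held one at 9 members (12.7%, against 3.55%). The 3′ UTR peak of iars-2 overlaps clec-87 and had a signal of 172 in the list of both replicates and 91.0 in replicate 1. Replicate 2's own list had a separate peak of signal 98.6 beside it, with the summit 17 bp past the 3′ end.

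The strongest peak inside any member lay in an intron of the phenylalanyl gene fars-1 at chrI:6212759-6212933, with a signal of 376 and rank 103. It was in both replicates' own lists, with 161 in replicate 1 and 214 in replicate 2. Its summit was 46 bp from the snoRNA gene T08B2.13, in the promoter window of mrpl-23 and within the non-coding genes T08B2.14 and T08B2.t1, so it cannot be given to fars-1 alone. The promoter of fars-1 itself had a percentile of 59.7 in replicate 1 and 56.5 in replicate 2.

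At the remaining members with such peaks the strongest had a signal between 67.2 and 137. The eIF2B gene eif-2Bdelta had an intron peak of 137 and a coding peak of 85.4. The cap-binding gene ife-3 had a peak of 114 lying 72 bp past its 3′ end, inside idpp-2. The asparaginyl gene nars-1 had a peak of 106 lying 122 bp past the end, and the alanyl gene aars-2 one of 104 in its 3′ UTR. Peaks of 117 at yars-2, 86.4 at eif-1.A and 67.2 at eif-2beta lay in the promoter windows of cif-1, srw-95 and C54G4.9. The last 47 members, 24 initiation factors, 22 synthetases and eef-1B.1, had no summit in the window, in the gene or at the 3′ end.

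**Figure D5:**
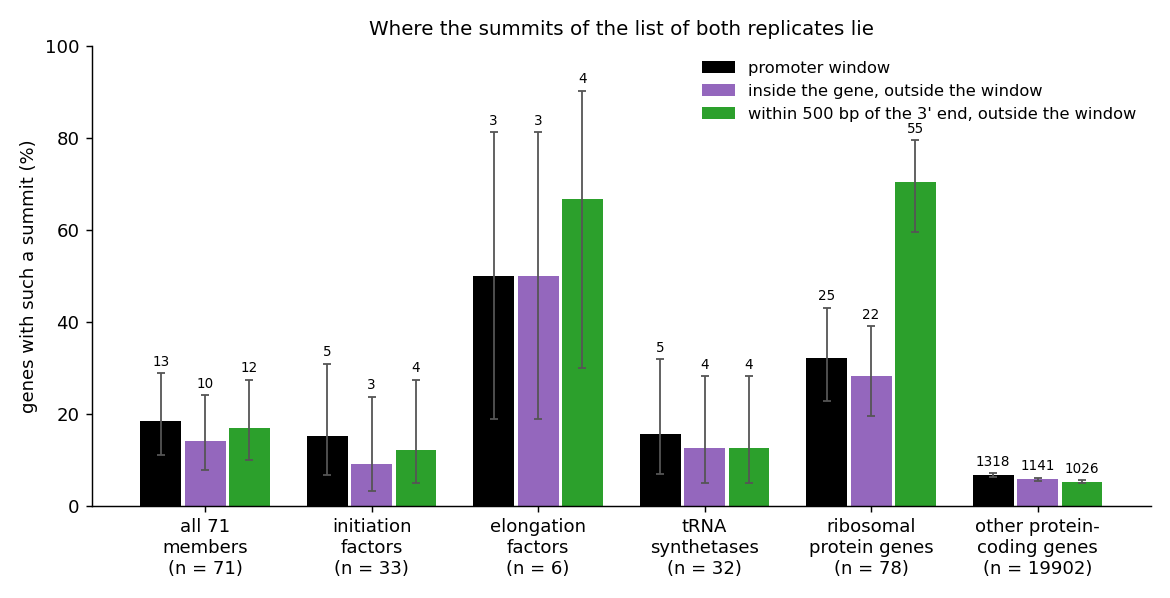
Share of genes (%) with a summit of the list of both replicates in the promoter window, inside the gene outside the window, or within 500 bp of the 3′ end outside the window. Error bars are 95% Wilson intervals and numbers give genes. A gene can count in several bars, and a summit inside the gene can also be at the 3′ end. Members had 18.3, 14.1 and 16.9%, against 6.62, 5.73 and 5.16% of other genes.

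Other genes of the pathway, from a list of 37 symbols of which 28 matched a protein-coding gene, held promoter summits at 6 (21.4%, interval 10.2 to 39.5%), against 6.62% of the 19902 genes that are no members. In replicate 2's own list 2 of the 28 had one (7.14%, against 4.48%), and in replicate 1's own list 3 did (10.7%, against 2.48%). The strongest were at drr-2, an eIF4H-like factor, with a signal of 305, and at larp-1, an RNA-binding La-related protein, with 260. Both were in both replicates' own lists: drr-2 with 133 in replicate 1 and 174 in replicate 2, and larp-1 with 93.0 and 161. The release factor gene erfa-3 had a signal of 99.6, and replicate 1's own list held it with 64.3. The poly(A)-binding protein genes pab-1 and pab-2 had signals of 107 and 106, and tct-1, the gene of the translationally controlled tumour protein, had 74.7. Neither replicate's own list held these last 3. The pab-1 summit is shared with the window of rpl-30, and that of tct-1 lies inside rplp-0.

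Sequence motifs were counted in 150 bp windows at summits, on both strands. CCNCNCCC (a GC-rich motif) was present at 3 of 15 member promoter summits (20.0%, interval 7.05 to 45.2%), against 9.57% of the 1254 other promoter summits and 271 of all 3187 summits. These were the summits of ears-2, tars-1 and vars-1. TATAAA was present at 2 member summits (13.3%), against 9.89% of others. GATAA was present at 1 (6.67%), against 21.1% of others. The GA repeat GAGAGNGA was present at 1 (6.67%), against 8.37% of others, and so was its special case GAGAGAGA, against 4.78% of others. The E-box CACGTG was present at 1 member summit, against 5.18% of others, and the E-box CAGCTG at 1, against 5.02%. The GC-rich motif GGGCGG was present at 1, against 126 of the 1254 others. The bZIP motif TGACGTCA was present at none, against 0.877% of others, as was the shorter bZIP motif TGACTCA, against 1.75%. The B box of tRNA genes was present at none, against 6.14% of others. The Wilson interval of 0 of 15 reaches 20.4%. With 15 summits each of these shares has a wide interval, and those of the other summits lie within it.

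In 300-base promoters, from 250 bases before to 50 after the outermost 5′ end, GATAA was present at 54.9% of members, against 57.6% of other genes. TATAAA was present at 35.2% of members, against 38.0% of other genes, and CCNCNCCC at 5.63%, against 7.31%. The E-box CACGTG was in 1 member promoter (1.41%), against 5.83% of other promoters, and the E-box CAGCTG in 1, against 5.56%. The GC-rich GGGCGG was in 4.23%, against 7.84%. The motif TGACGTCA was in 1.41%, against 1.51%, and its shorter form TGACTCA in 2.82%, against 3.62%. No member promoter held GAGAGNGA, which 6.39% of other promoters held, nor the longer repeat (3.55%) or the B box (0.166%). The median GC content of the 150 bp windows was 46.0% at member promoter summits and 46.7% at other promoter summits.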

How the data were processed

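LIN-26::GFP ChIP-seq of 2 biological replicates used chromatin sonicated to between 200 and 800 bp, per the labels. Their antibody field names lin-26, and their description names GFP. The analysis began from 8 deposited lists of peaks on ce11, compared by the authors with a control alignment, per the text filed with the samples. Tools and thresholds behind the lists were not given in the sources used here. Each peak carries the authors' signal (relative to control), a deposited IDR score whose lowest value in thresholded lists is 830 (an IDR of 0.01) and, in ranked lists, the deposited −log10 of the global IDR. Other deposited columns gave the peak ends and summit offsets. The lists hold no counts, so depth is unknown.

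Summits were assigned to windows at 29784 5′ ends from Ensembl release 115, with symbols from RefSeq through WormBase identifiers for 19965 of 19973 genes. A replicate's ranked signal is that of the strongest ranked peak overlapping the named peak. Copies of peak sequences were sought with blastn 2.17.0 (e-value 1e-05). Printed sequences are from the RefSeq WBcel235 genome. Shares have Wilson intervals (Python 3.11.15, numpy 2.4.6, pandas 2.3.3), and no test across genes was made. The assignment was tested on simulated data and found all 200 placed genes. Members, gene lists and motifs were chosen with earlier results of these data known. The genes named are the members with a promoter summit, with a summit inside the gene, or with one in a replicate's own list only, then the 5 next by IDR, genes sharing their windows, nearby short RNA genes, and pathway genes with a promoter summit. Genes with a summit past the 3′ end, and a few others, were added after their values were seen.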

Additional observations from a re-analysis of the deposited data

How the results depend on the processing

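The count of 13 members held within 1.5 times on the conservative list, with shorter or longer windows, with the outermost or nearest 5′ end, with any base of the peak, without summits near short RNA genes and, chosen after seeing the data, without peaks of signal under 30. Taking as other genes only those with a genetic name leaves the member count as it is by construction, and gave 8.14% of them with a summit, in place of 6.62%. Left to 1 replicate, it ran from 1 (replicate 1's list, without replicate 2) to 10. At an IDR of 0.05 it was 22, at 0.001 it was 4, and among peaks at or above the median signal 6. The ratio of the member share to that of other genes ran from 0.567 (replicate 1's list) to 3.40.

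For initiation factors (5) the count ran from 0 to 3 in single replicates, and was 8 at an IDR of 0.05, 2 at 0.001, 3 above the median signal, 2 in the window of 500 bp upstream and 3 with the outermost 5′ end. Their share was 6.06% against 4.15% of other genes in the 500 bp window and 9.09% against 5.83% with the outermost 5′ end. In replicate 1's list it was 0 against 2.48%, and in replicate 2's 9.09% against 4.48%. It was 24.2% against 11.5% at an IDR of 0.05, 6.06% against 2.81% at 0.001 and 9.09% against 3.66% above the median signal. For elongation factors (3) the count ran from 1 to 4, and was 5 at an IDR of 0.05 and 1 at 0.001. For synthetases (5) it ran from 0 to 3, and was 2 on the conservative list, 9 at an IDR of 0.05, 1 at 0.001 and 1 above the median signal. In 3 of these settings the synthetase share was near that of other genes: 6.25% against 5.61% on the conservative list, 3.12% against 2.81% at 0.001 and 3.12% against 3.66% above the median signal. For ribosomal protein genes (25) it ran from 14 to 22, and was 13 at an IDR of 0.001, 16 above the median signal, and 43 both in the window of 2000 bp upstream and by the nearest 5′ end. For other translation genes (6) it ran from 2 to 3. The ratio of median signals, 0.847, ran from 0.852 to 1.27 in single replicates, where 1.27 rests on 1 gene. Members with a 3′-end summit (12) ran from 3 to 9. With 100 bp windows CAGCTG was at 0 member summits, as were GGGCGG (0) and the motif CCNCNCCC (0), and with 200 bp windows GATAA was at 4 and GGGCGG at 2.

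These results are limited by the small classes, by the lack of read depths, and by replicate 1's own list holding 1 member. The cause of the replicates' difference was not tested. No paired analysis was possible because there is 1 group.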
